A study of Mus musculus with 2 samples.

Results

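The 9 core genes of the Hedgehog pathway were described here by the islands of 2 deacetylase ChIP-seq libraries: the ligands Shh and Ihh, the receptor genes Ptch1 and Smo, the decoy receptor gene Hhip, the inhibitor Sufu and the transcription factors Gli1, Gli2 and Gli3. The genes were taken by name as a pathway, with no rule on their islands but with earlier results of these data known, and all 9 were found among the 21887 protein-coding genes of the annotation. Nephron progenitor cells, the mesenchymal cells of the fetal kidney that form the nephron, came from E16.5 kidneys of wild-type mouse embryos and were cultured and fixed with formaldehyde. Chromatin was immunoprecipitated in 1 library with an antibody against Hdac1 and in 1 with an antibody against Hdac2. Both libraries shared genotype, age and culture, and the antibody amounts in the file labels differed (0.5 µg for Hdac1 and 1 µg for Hdac2). There was no replicate, so values below describe these 2 libraries and no test between them could be made.

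In the Hedgehog pathway, a secreted ligand binds the receptor Ptch1, which then stops holding back Smo, the protein that passes the signal inward at the primary cilium. Without ligand, Sufu restrains the Gli proteins and Gli3 in particular is cut to a repressor form. With ligand, full-length Gli2 and Gli3 activate target genes, among them Gli1, Ptch1 and Hhip, whose products feed back on the pathway. In the fetal kidney, Shh is made by epithelium of the ureter and collecting system and acts mainly on the stromal mesenchyme around it, and excess Gli3 repressor is known to disturb kidney formation. Hdac1 and Hdac2 are class I histone deacetylases found in corepressor complexes, and Hdac1 is also known to deacetylate Gli proteins. ChIP-seq as used here shows where the deacetylases or their complexes sit on DNA, and not expression or acetylation.

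An island is a stretch of the mm10 genome in which the authors' caller, SICER, found more reads than background. For every island the authors deposited a single p-value or q-value, and its rank below is its place in its own list, ordered from the lowest value, as a percentage of the list's length, so that a small percentage means a strong island. Islands with equal values all take the first place of their tie. The Hdac1 list held 30182 islands with a median width of 2 kb, and the Hdac2 list 20307 islands with a median of 2.8 kb. Values and ranks depend on depth and background, which differ between lists in an unknown way, so they order islands within 1 list only. The read depth is unknown. Among markers of the cell types a kidney culture could hold, an Hdac1 island lay within 1 kb of a gene end at 8 of 8 nephron progenitor genes, 6 of 6 stromal genes, 4 of 6 ureteric bud genes and 1 of 5 endothelial and blood genes. For Hdac2 these counts were 7, 3, 2 and 0. Over all genes the shares were 60.7% and 31.7%, so the ureteric bud genes were near them. Among these, Hoxb7 counted for both antibodies through islands far wider than the medians, 89.4 kb for Hdac1 and 13.6 kb for Hdac2. Since islands do not measure expression, the makeup of the culture was not tested.

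All 9 members had an Hdac1 island at a gene end, and 6 also had an Hdac2 island there (Ptch1, Smo, Sufu, Gli1, Gli2 and Gli3). A gene end means within 1 kb of the first or last base of the annotated gene. Over all genes, 60.7% had Hdac1 at an end, 31.7% had Hdac2 and 30.7% had both. When only the stronger 50% of each list was kept, the members with Hdac2 at an end fell to 2 (Gli1 and Gli2), against 15.8% of all genes, and Hdac1 was at 7 of 9, against 52.6%. The 3 members without Hdac2 at an end were Shh, Ihh and Hhip. The Shh gene nevertheless carried 2 Hdac2 islands, which lay 1161 and 1501 bp from the nearer gene end, just outside the 1 kb limit. Counting any island that touched the gene, Hdac1 was present at 9 of 9 members (65.5% of all genes) and Hdac2 at 7 of 9 (38.4% of all genes). With the surrounding 100 kb added, both antibodies had an island at 9 of 9 members, against 85.4% of all genes for Hdac1 and 85.5% for Hdac2, so this last count says little about the members.

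**Figure D1:**
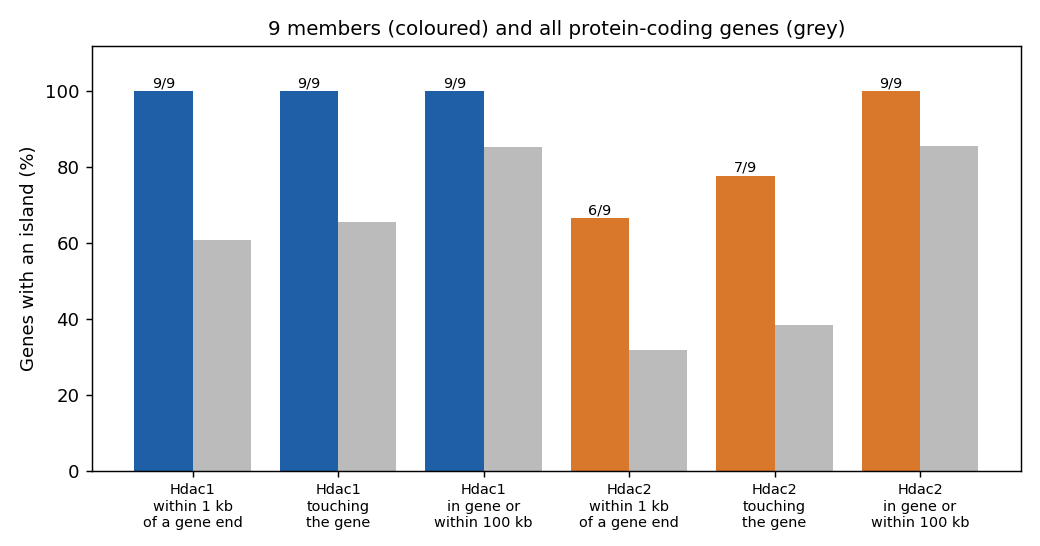
Percentage of genes with an island (vertical axis) for each library and distance rule, for the 9 members (coloured bars, with counts) and for all 21887 protein-coding genes (grey bars). The coloured bars reach 9 of 9 in every Hdac1 group and in the widest Hdac2 group, where the grey bar stands at 85.5%.

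The strongest islands of the set lay on the listed transcription start of Ptch1, at which the Hdac1 island was 6.4 kb wide and listed at 0, the lowest value in the file, which 82 Hdac1 islands share (0.272% of the list). Starts were listed with sequence for 7 members (RefSeq, GRCm38.p6, the assembly of mm10), all but Shh and Gli1. At each of the 7, the 250 bases before the start were wholly covered by an Hdac1 island, compared with an overlap at 58.9% of 21263 such windows over all genes. An Hdac2 island wholly covered 5 of the 7 windows, those of Ptch1, Smo, Sufu, Gli2 and Gli3, against an overlap at 30.3% of all windows. No Hdac2 island touched the windows of Ihh and Hhip.

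The 250 bases before the start are shown for 3 members covered by both deacetylases (Ptch1, Gli2, Gli3) and for the 2 covered by Hdac1 alone (Ihh, Hhip), so that the DNA under shared and unshared islands can be compared. Each is written 5′ to 3′ on the strand of the gene. Capitals mark the letters GGGCGG or their reverse complement CCGCCC, a GC box of the kind bound by Sp1-type factors. The windows are chr13:63565736-63565985 (Ptch1, minus strand), chr1:119053620-119053869 (Gli2, minus strand), chr13:15463473-15463722 (Gli3, plus strand), chr1:74951673-74951922 (Ihh, minus strand) and chr8:80058009-80058258 (Hhip, minus strand).
Ptch1: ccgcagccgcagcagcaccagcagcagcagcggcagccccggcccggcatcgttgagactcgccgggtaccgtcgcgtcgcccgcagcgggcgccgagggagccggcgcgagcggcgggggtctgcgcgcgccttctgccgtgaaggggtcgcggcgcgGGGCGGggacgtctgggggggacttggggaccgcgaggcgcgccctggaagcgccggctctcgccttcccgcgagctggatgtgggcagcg
Gli2: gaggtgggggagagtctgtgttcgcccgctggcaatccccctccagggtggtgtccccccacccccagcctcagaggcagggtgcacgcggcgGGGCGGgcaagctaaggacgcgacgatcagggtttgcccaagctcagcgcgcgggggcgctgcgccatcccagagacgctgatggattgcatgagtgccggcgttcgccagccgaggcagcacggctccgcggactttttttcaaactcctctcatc
Gli3: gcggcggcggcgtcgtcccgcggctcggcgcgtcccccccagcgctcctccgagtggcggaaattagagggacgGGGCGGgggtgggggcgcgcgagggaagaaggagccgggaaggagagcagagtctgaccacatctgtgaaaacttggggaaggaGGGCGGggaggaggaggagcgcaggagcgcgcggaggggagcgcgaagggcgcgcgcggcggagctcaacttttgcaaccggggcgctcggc
Ihh: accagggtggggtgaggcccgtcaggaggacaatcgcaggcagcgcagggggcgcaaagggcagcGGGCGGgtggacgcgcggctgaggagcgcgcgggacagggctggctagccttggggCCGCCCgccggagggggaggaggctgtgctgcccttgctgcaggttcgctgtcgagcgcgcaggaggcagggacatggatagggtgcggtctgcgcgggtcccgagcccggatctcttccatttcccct
Hhip: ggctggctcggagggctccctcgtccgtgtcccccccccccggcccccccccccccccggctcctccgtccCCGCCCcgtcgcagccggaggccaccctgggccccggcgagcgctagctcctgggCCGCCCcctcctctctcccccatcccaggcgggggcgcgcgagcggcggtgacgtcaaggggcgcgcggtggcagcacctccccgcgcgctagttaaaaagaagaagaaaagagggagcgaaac

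The windows shown were rich in G and C whether or not Hdac2 was there, against a median of 55.6% over all windows. Ptch1 had 41 CpG dinucleotides and 78.4% G or C, Gli3 had 34 and 72.8%, and Gli2 had 22 and 67.2%. The windows with Hdac1 alone fell in the same range, with 28 CpG and 76% for Hhip and 24 CpG and 72% for Ihh. The lowest CpG counts belonged to Sufu (8 CpG, 54% G or C) and Smo (15 CpG, 68.4%), which are not shown and were both covered by both antibodies. The Sufu window was below the median over all windows in both measures. The median over the 7 was 24 CpG, against 10 over all windows, 17 over windows with an Hdac1 island and 2 over windows without. A GC box was found in 6 of the 7 windows, all but that of Smo, and in 42.6% of all windows. The site letters of Gli proteins, TGGGTGGTC, and their first part, TGGGTGG, searched on both strands, were in none of the 7 windows and in 0.16% and 8.29% of all windows. The shorter motif is contained in the longer one, and an absence from 250 bases says nothing about binding elsewhere.

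**Figure D2:**
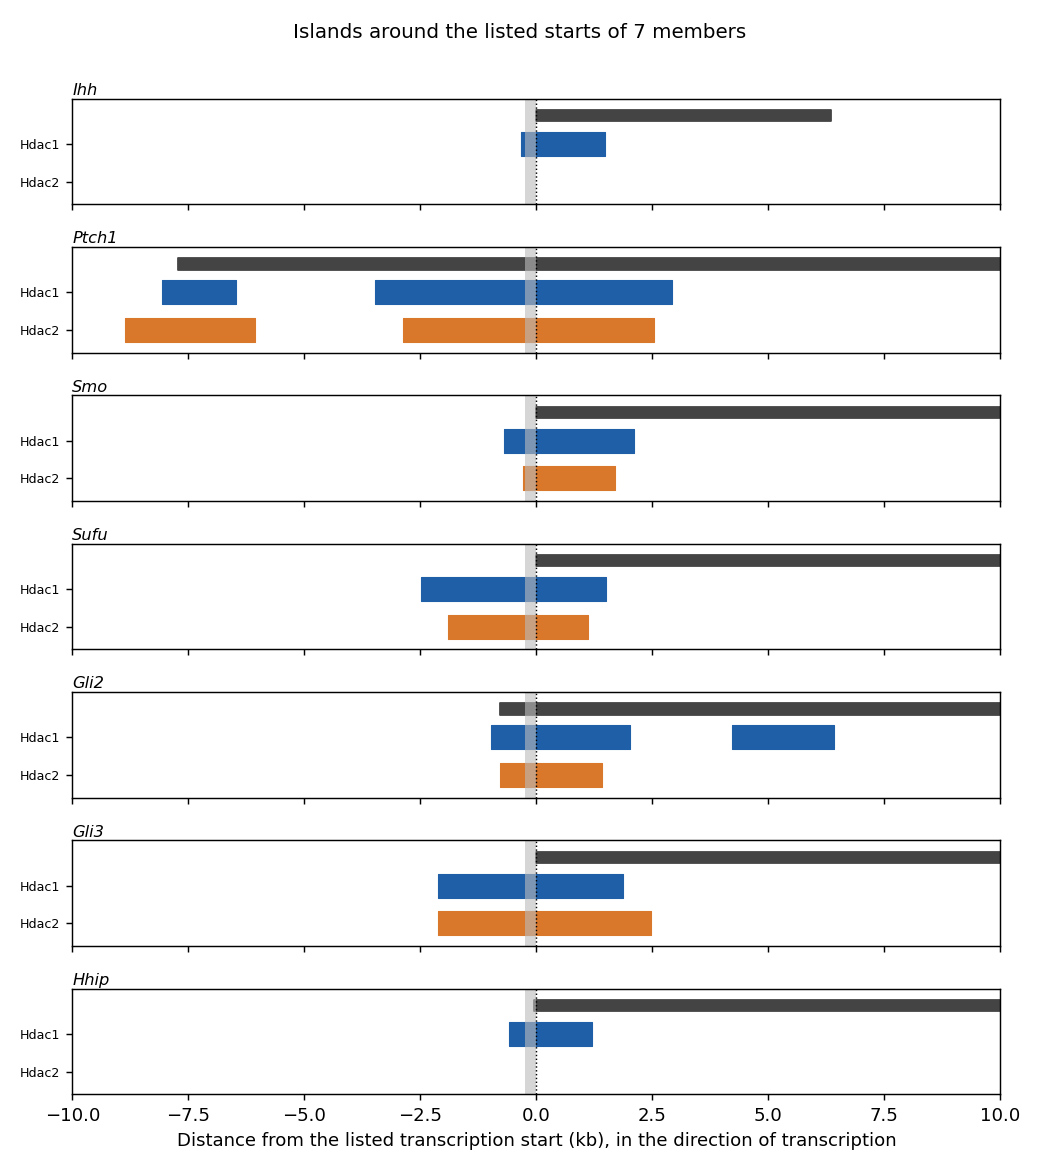
Hdac1 (blue) and Hdac2 (orange) islands around the listed transcription start of 7 members, with distance in kb in the direction of transcription. The dark bar is the annotated gene, the dotted line the start and the pale band the 250 bases before it. Hdac1 covers the band in all 7 rows, and the Hdac2 track is empty for Ihh and Hhip.

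Of the ligand genes, Shh carried islands of both antibodies and Ihh an Hdac1 island alone. Shh encodes Sonic hedgehog, the ligand of the collecting system, and spans 28456840 to 28467101 on chromosome 5. Its Hdac1 islands ran from 28457601 to 28460200 (2.6 kb, value 3.34e-59, rank 17.4%) and from 28462601 to 28467000 (4.4 kb, value 5.13e-54, rank 19.6%). Together they covered 68.2% of the gene, the highest percentage among the 9 members. Each held an Hdac2 island wholly within it. The Hdac2 islands ran from 28458001 to 28459400 (1.4 kb, value 9.56e-13, rank 17.8%) and from 28463801 to 28465600 (1.8 kb, value 7.42e-11, rank 28.0%) and covered 31.2% of the gene. Outside Shh no island of either library lay within 100 kb. The nearest were an Hdac1 island 138.6 kb away and an Hdac2 island 122.9 kb away, on opposite sides of the gene.

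Ihh encodes Indian hedgehog, the ligand best known from growing cartilage, and spans 74945315 to 74951672 on chromosome 1. Its single island at the gene was an Hdac1 island from 74950201 to 74952000, over the listed start (1.8 kb, value 2.91e-15, rank 53.1%). No Hdac2 island touched Ihh. Outside the gene, all 4 Hdac1 islands within 100 kb touched neighbouring genes (Cdk5r2, Fev and Cryba2), and the only Hdac2 island, at Cdk5r2, was 86.7 kb away. The ligand genes thus differed in these libraries, with the best Shh islands at ranks of 17.4% and 17.8% and the Ihh island at 53.1% of the Hdac1 list.

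The receptor genes Ptch1 and Smo both carried shared islands. The pair over the listed Ptch1 start was stronger and wider than that at the Smo start, and the pair at the annotated end of Ptch1 was weaker. Ptch1, the ligand receptor and itself a target of the pathway, spans 63508328 to 63573460 on chromosome 13. Its island over the listed start ran from 63562801 to 63569200 for Hdac1 (6.4 kb, listed at 0) and from 63563201 to 63568600 for Hdac2 (5.4 kb, value 1.02e-27, rank 1.81%). The Hdac2 island lay wholly within the Hdac1 island and took up 84.4% of it. Of all Hdac1 islands 1.85% were at least 6.4 kb wide, and of all Hdac2 islands 9.68% were at least 5.4 kb wide. The listed start lies 7.72 kb inside the annotated gene, so this pair counted as inside the gene and not as at its end.

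At the annotated 5′ end of Ptch1 there was a second and weaker pair. The Hdac1 island there ran from 63572201 to 63573800 (1.6 kb, value 5.59e-28, rank 35.1%). The Hdac2 island ran from 63571801 to 63574600 (2.8 kb, value 0.003, rank 97.7%) and was among the weakest of its list. The count of Ptch1 among the members with Hdac2 at an end rests on this weak island, while the strong one is at the start inside the gene. Nothing lay between these pairs and the 3′ end of Ptch1 in either list. Outside the gene, an overlapping pair in Fancc, 74.3 and 75.7 kb away, ranked 37.4% for Hdac1 and 96.3% for Hdac2. A further Hdac2 island in Fancc (4.8 kb, rank 16.3%) had no Hdac1 partner.

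Smo, the gene for the signal transducer held back by Ptch1, spans 29735497 to 29761366 on chromosome 6. Its start carried an Hdac1 island from 29734801 to 29737600 (2.8 kb, value 4.9e-61, rank 16.6%) and, wholly within it, an Hdac2 island from 29735201 to 29737200 (2 kb, value 7.81e-06, rank 79.7%). The stronger Hdac2 island of Smo lay inside the gene, from 29747601 to 29750200 (2.6 kb, value 2.89e-11, rank 25.6%). It was the only Hdac2 island at or inside a member that overlapped no Hdac1 island. At 6.04 kb beyond the gene, an end of Ahcyl2 carried an Hdac1 island stronger than that of Smo (2.2 kb, value 1.75e-78, rank 11.2%).

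Hhip, the gene for a membrane protein that binds ligand without signalling and is a target of the pathway, had the weakest Hdac1 island at an end of any member. It spans 79965850 to 80058060 on chromosome 8, and the island over its start ran from 80056801 to 80058600 (1.8 kb, value 1.49e-08, rank 77.2%). No Hdac2 island touched the gene. Across 92.2 kb of annotated sequence, 1.37% was covered by Hdac1. A shared region lay 35.6 kb beyond the 3′ end of Hhip, with Anapc10 as the nearest other protein-coding gene, 151.5 kb from the Hdac1 island. There the Hdac1 island (1.4 kb, value 2.84e-31, rank 32.3%) was stronger than that at the Hhip start, and the Hdac2 island (2 kb, value 2.83e-12, rank 20%) covered 85.7% of it. Ptch1 and Hhip are both feedback targets, and they stood at opposite ends of the members by their best Hdac1 island at or inside the gene.

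Sufu, which encodes the cytoplasmic inhibitor of the Gli proteins, lay in the most densely covered surroundings. It spans 46396896 to 46488804 on chromosome 19. Over the gene and 100 kb on either side, Hdac1 islands covered 17.6% and Hdac2 islands 8.08%, against medians over all genes of 3.88% and 2.41%. The island over its start ran from 46394401 to 46398400 for Hdac1 (4 kb, value 5.3e-74, rank 12.4%) and from 46395001 to 46398000 for Hdac2 (3 kb, value 0.000503, rank 94.4%). Actr1a, a dynactin subunit gene, also ends within 1 kb of this island, so the signal cannot be assigned to Sufu alone.

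Inside Sufu there were 8 further Hdac1 islands, all in the part of the gene away from the start. The strongest ran from 46469401 to 46472800 (3.4 kb, value 8.8e-23, rank 40.4%), and the weakest from 46443601 to 46446000 had rank 98.7%. Hdac2 overlapped 2 of the 8, with ranks of 76.2% and 81.1%. Beyond the gene, the 5.6 kb Hdac1 island at Trim8, 10.4 kb away, was among the strongest of its list (value 9.99e-271, rank 0.417%) and held an Hdac2 island of rank 2.75%. Of the 22 Hdac1 islands in this region, 13 lay outside Sufu, and 9 of these lay in or within 1 kb of an end of a neighbouring gene.

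The Gli genes all carried both antibodies at an end, with Gli3 strongest for Hdac1 and Gli2 strongest for Hdac2. Gli3, the main repressor of the family, spans 15463723 to 15730026 on chromosome 13. Its start carried an Hdac1 island from 15461601 to 15465600 (4 kb, value 8.14e-152, rank 2.45%) and an Hdac2 island with the same first base, ending at 15466200 (4.6 kb, value 2.04e-08, rank 50.1%). Inside the gene, Hdac1 had 4 more islands. The one from 15543601 to 15544800 (1.2 kb, value 7.93e-31, rank 32.6%) overlapped the only other Hdac2 island of Gli3, which ran from 15543801 to 15544800 (1 kb, value 3.46e-15, rank 10.4%). By rank within its list, the Hdac2 island inside Gli3 was thus stronger than that at the start, and for Hdac1 the order was the other way round. All islands in Gli3 lay within 100.1 kb of the start, and the remaining 166.2 kb of the gene had none.

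Gli2, the main activator, spans 118834061 to 119054405 on chromosome 1 and had islands along most of its length. The island at the start ran from 119051601 to 119054600 for Hdac1 (3 kb, value 4.91e-82, rank 10.3%) and from 119052201 to 119054400 for Hdac2 (2.2 kb, value 2.41e-15, rank 10.1%). Of 7 further Hdac1 islands inside the gene, 5 overlapped an Hdac2 island. These 5 pairs were weaker for Hdac1, with ranks between 39.8% and 82.5%. The strongest Hdac2 island among them, from 118878201 to 118881600 (3.4 kb, value 1.27e-09, rank 38.1%), began at the same base as its Hdac1 partner. Outside the gene, a single Hdac1 island of 0.8 kb lay within 100 kb, and the nearest Hdac2 island was 364.8 kb away.

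Gli1, an activator that is also a common readout of pathway activity, spans 127329882 to 127341579 on chromosome 10, among closely spaced genes. At 1 end it carried an adjacent pair of islands in each library. The Hdac1 islands ran from 127338801 to 127340800 (2 kb, value 1.29e-39, rank 26.7%) and from 127341601 to 127343000 (1.4 kb, value 2.29e-22, rank 40.8%). The Hdac2 islands ran from 127338001 to 127341000 (3 kb, value 7.15e-07, rank 68.2%) and from 127341801 to 127343000 (1.2 kb, value 2.59e-11, rank 25.3%). The stronger island was the inner one for Hdac1 and the outer one for Hdac2. A weak Hdac1 island (1.4 kb, rank 73.5%) lay inside the gene without Hdac2. All 7 Hdac1 and all 4 Hdac2 islands outside Gli1 but within 100 kb touched other genes, such as Mbd6 and Mars1. Which end of Gli1 or Shh is the start was not used here.

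**Figure D3:**
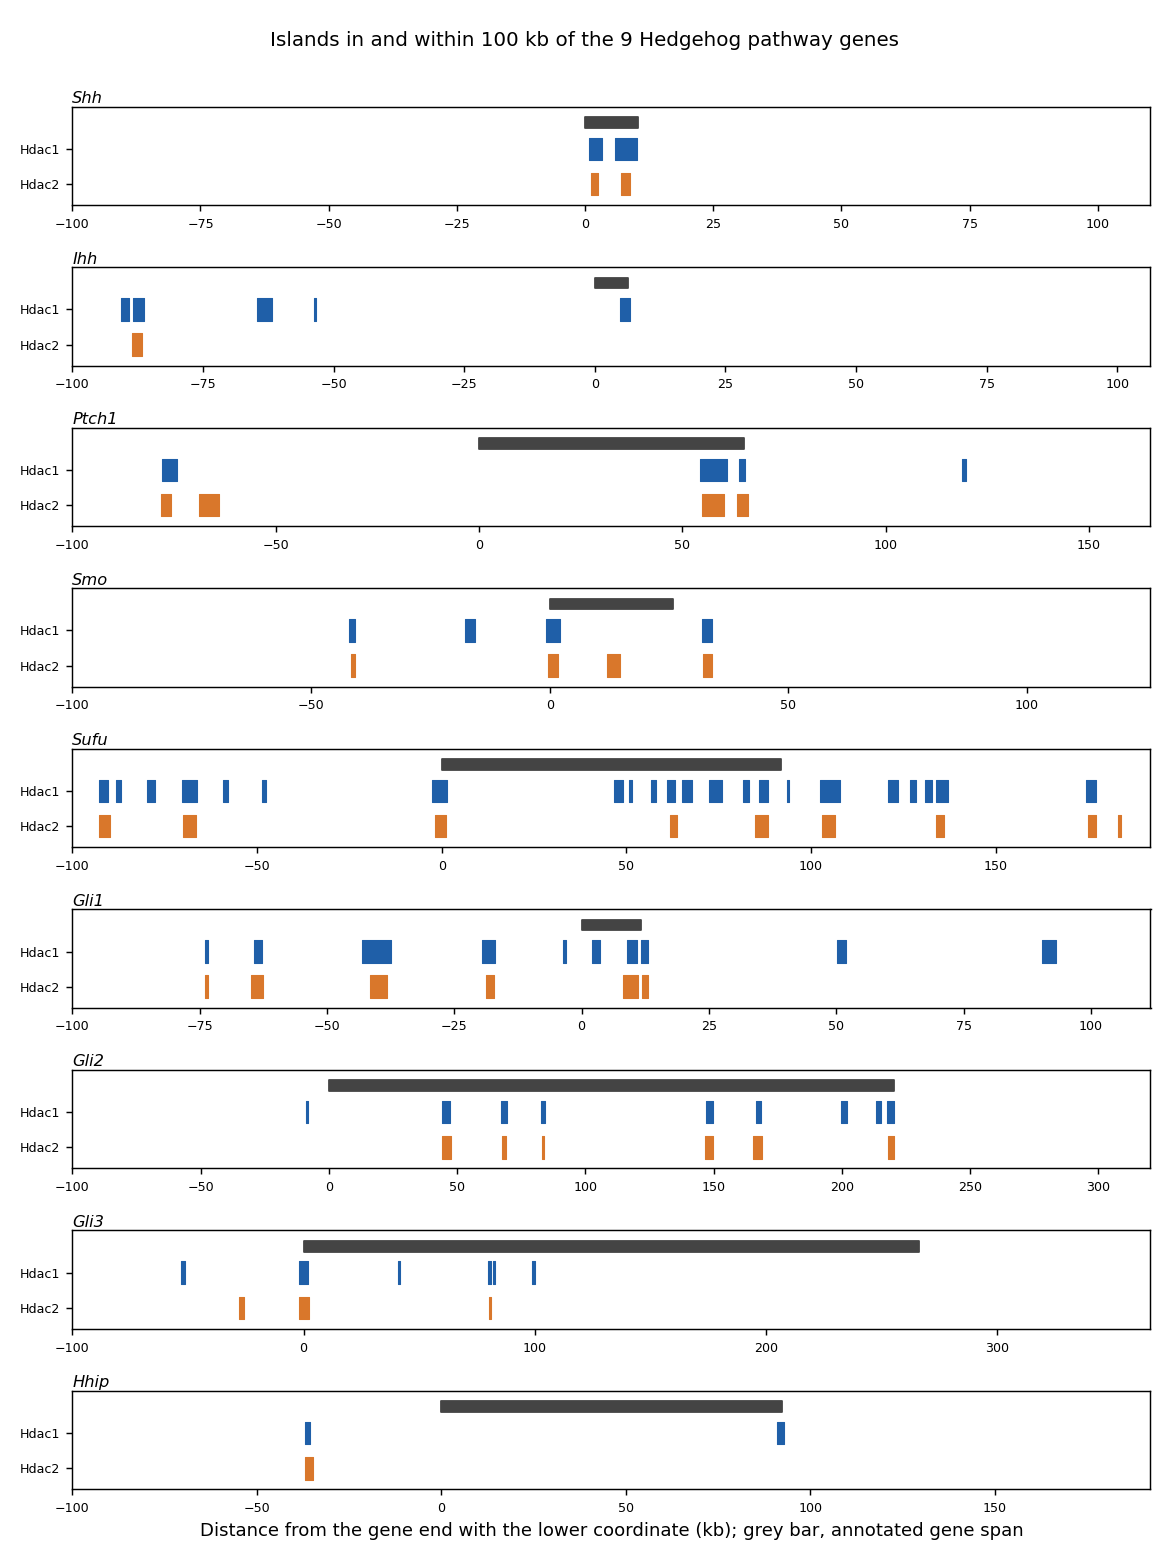
Hdac1 (blue) and Hdac2 (orange) islands in and around each of the 9 members, with distance in kb from the gene end with the lower coordinate and the annotated gene as a dark bar; each row has its own scale. Shh has no island outside the gene, Sufu is flanked by many, and the islands of Gli3 stop within 100.1 kb of its start.

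Among the members, the Hdac1 order at gene ends by best island ran from Gli3 (rank 2.45%) through Gli2, Sufu, Smo, Shh, Gli1, Ptch1 and Ihh to Hhip (77.2%). The median was 17.4%, against 20.9% over all genes with such an island. For Hdac2 the order ran from Gli2 (10.1%) through Gli1, Gli3, Smo and Sufu to Ptch1 (97.7%), with a median of 64.9% against 50.2%. The Hdac2 islands at the ends of the members were therefore mostly from the weaker part of their list, with Gli2 and Gli1 as the exceptions. When islands inside the gene were included, Ptch1 moved to the top for both antibodies. With 1 library each, whether neighbours in these orders differ cannot be said.

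**Figure D4:**
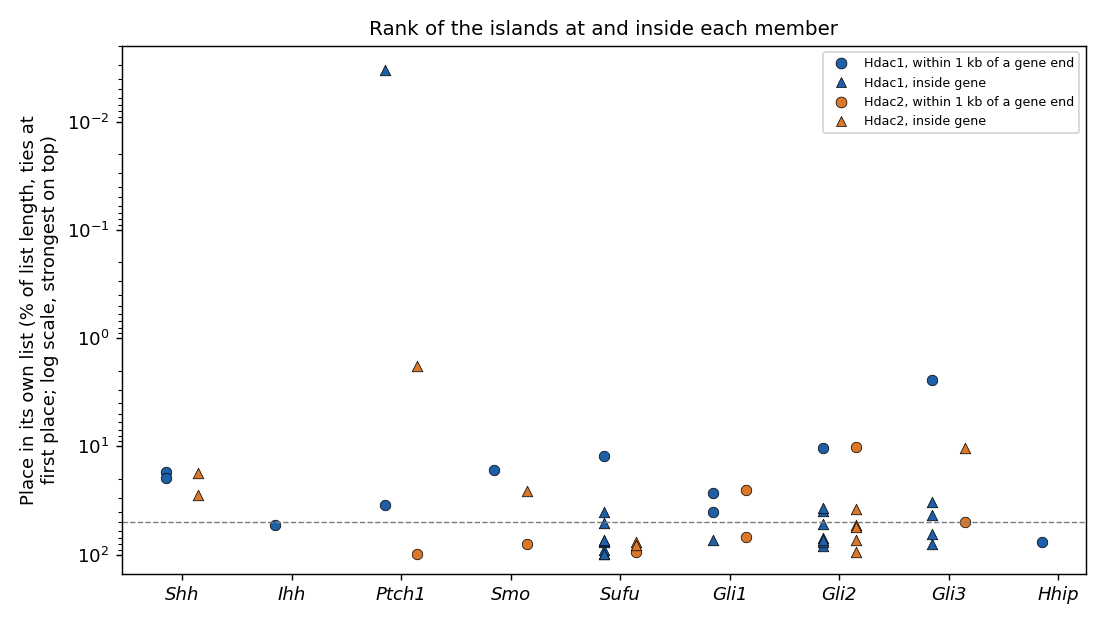
Rank of each island at or inside a member within its own list, on a log axis with the strongest at the top, for Hdac1 (blue) and Hdac2 (orange). Circles lie within 1 kb of a gene end and triangles inside the gene, and the dashed line marks 50%. Ptch1 holds the top point of both colours, at 1.81% for Hdac2 and, for Hdac1, at the first place that the islands listed at 0 share, which together make up 0.272% of the list.

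Hdac2 islands at these genes nearly always coincided with Hdac1, and the reverse was less complete. In the members and within 100 kb there were 64 Hdac1 and 36 Hdac2 islands. The median per gene was 5 Hdac1 islands both for the members and for all genes. For Hdac2 it was 4 for the members and 2 for all genes. Of the 64 Hdac1 islands, 32 (50%) overlapped Hdac2, against 39.8% of the whole Hdac1 list. Of the 36 Hdac2 islands, 32 (88.9%) overlapped Hdac1, against 59.4% of the whole Hdac2 list. Overlap means at least 1 shared bp. At gene ends 9 of 11 Hdac1 islands were shared, inside the genes 9 of 21, and outside 14 of 32. All 7 Hdac2 islands at gene ends and 11 of 12 inside overlapped Hdac1. Over all genes, 6943 had Hdac2 at an end and 6725 of these also had Hdac1 at an end. Having Hdac1 at an end where Hdac2 is at an end is therefore not particular to the members. In the other direction, 6725 of 13286 genes with Hdac1 at an end also had Hdac2 there, against 6 of 9 members. These are counts of genes and not of overlapping islands. The shares over whole lists include islands at any position, and shares by position were not computed. In 19 of the 32 overlapping pairs the Hdac2 island lay wholly within the Hdac1 island. The matching share over all overlapping pairs of the lists is not given here. The islands are not independent, since 23 of the 32 Hdac1 islands at or inside members belonged to the 4 genes longer than 90 kb (Sufu, Gli2, Gli3 and Hhip). Of the 32 Hdac1 islands outside members, 24 lay in or within 1 kb of an end of another gene. For this count too the share over the whole list is not given.

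The other genes of the pathway were read from 4 lists with 84 genes, with some overlap between the lists. An Hdac1 island lay at an end of 79 of them (94.0%) and an Hdac2 island at 46 (54.8%), against 60.7% and 31.7% of all genes. The shares of 60.7% and 31.7% apply to each list below. None had Hdac2 without Hdac1. Over all genes that was rare too, since 6725 of 6943 genes with Hdac2 at an end also had Hdac1 at an end. Genes of ligand release and reception had Hdac1 at 14 of 14 and Hdac2 at 8 of 14. The strongest Hdac1 islands there belonged to Gas1, which encodes a coreceptor (10.4 kb, listed at 0), Gpc6, a glypican gene (5.6 kb, value 1.97e-148), and Boc, another coreceptor gene (3.8 kb, value 1.74e-66). All 3 also had Hdac2. The ligand gene Dhh and the ligand release gene Disp1 were among those that had Hdac1 without Hdac2 at an end, although Hdac2 touched both inside the gene.

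Genes of signal relay and Gli regulation had Hdac1 at 24 of 28 and Hdac2 at 13 of 28. Gsk3b (6 kb, value 1.12e-197), Prkaca (3.2 kb, value 2.19e-193) and Prkar1a (4.2 kb, value 7.43e-127) led this list. Their products, a kinase and the catalytic and regulatory subunits of protein kinase A, take part in the phosphorylation that precedes Gli processing. Prkaca also had a strong Hdac2 island (3.2 kb, value 4.72e-28, rank 1.74%). Dyrk2, Fbxl17 and Zic1 were among the genes with no island of either antibody at an end, although both touched Dyrk2 and Fbxl17 inside the gene.

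The lists of cilium genes and target genes differed in Hdac2 while Hdac1 was nearly complete in both. Genes of transport in the primary cilium, the organelle in which Smo acts, had Hdac1 at 20 of 20 and Hdac2 at 6 of 20 (30%), close to the 31.7% of all genes. Ift140 (4.4 kb, listed at 0), Ift80 (4.4 kb, value 1.26e-264) and Ift88 (1.4 kb, value 1.07e-78) led this list, and Ift88 had no Hdac2. Common target genes had Hdac1 at 22 of 23 and Hdac2 at 19 of 23 (82.6%). Mycn (7.2 kb, value 3.09e-224), Ccne1 (3 kb, value 2.55e-165) and Ccnd2 (9.4 kb, value 3.8e-163) were strongest for Hdac1 here. Many of these targets are developmental regulators that other pathways use as well. Nkx2-2 had no island at an end, and those with Hdac1 alone included Nkx6-1 and Osr2. The difference between the lists was not tested, since genes of 1 library are not replicates.

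**Figure D5:**
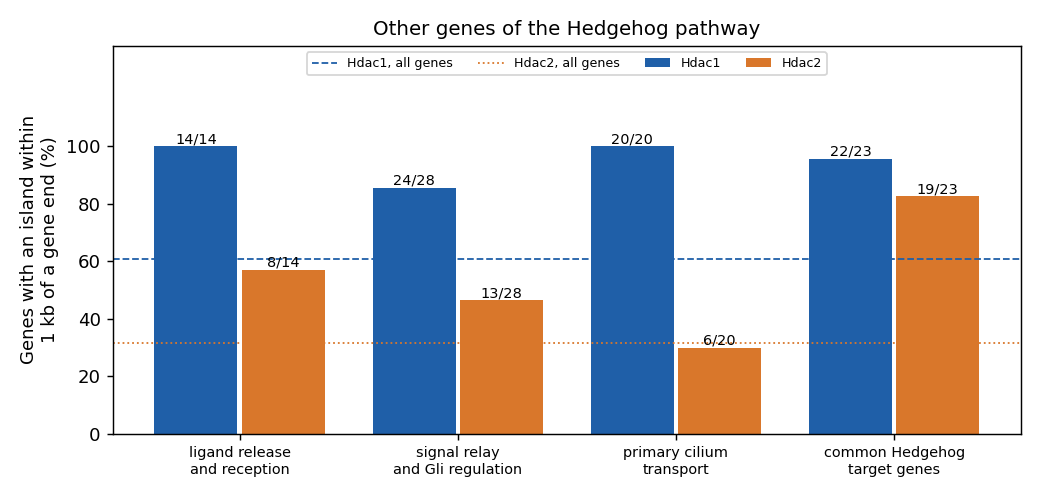
Percentage of genes with an island within 1 kb of a gene end (vertical axis) for 4 lists of other Hedgehog pathway genes, for Hdac1 (blue) and Hdac2 (orange), with counts above the bars and the values over all genes as lines. The Hdac2 bar of the cilium genes stands at 30%, near its line at 31.7%, and that of the target genes at 82.6%.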

How the data were processed

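Libraries were made from 500 pg of DNA with 12 or more amplification cycles, per the labels' protocols, and such reads are not independent molecules. IgG and H3K4me3 controls were not analysed here. The submitters' processing notes name FastQC, BWA 0.7.5a, SAMtools 1.3.1, bedtools 2.17, SICER and build mm10. For SICER settings, the background library and pooling, nothing is stated in the sources used here. The authors deposited 1 p-value or q-value per island (all under 0.1), without stating which. Islands lie on a 200 bp grid, were at least 800 bp apart, and are given 1-based. SICER joins windows into wide regions with coarse edges.

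Gene spans came from the RefSeq table of GRCm38.p6, without strand, exons or UTRs, and 250-base windows and strands from its promoter table (7 of 9 members). Mitochondrial genes were left out, and only protein-coding genes were counted, also as neighbours of islands. With more than 1 island at the ends of a gene, the strongest was used. The members and lists were chosen with earlier results of these data known. All members are named; of other pathway genes, the 3 with the lowest Hdac1 value per list, those with Hdac2 alone and those with neither, and others were named after their values were seen. Individual results of some listed genes are left out here. With 2 libraries no genes were ranked by likeness of pattern. Python 3.11.15, numpy 2.4.6, pandas 2.3.3 and matplotlib 3.10.9 were used, and overlap counts were tested on simulated data against bedtools 2.31.1. Alternatives were other windows, distances and overlaps, transcription starts only, merged islands and the upper 50% of each list.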

Additional observations from a re-analysis of the deposited data

How the results depend on the processing

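Of 34 alternative values, 25 stayed within 1.5 times the reported one. Keeping the upper 50% of each list moved most of the others: members with Hdac2 at an end fell to 2 (Gli1 and Gli2) and members with both also to 2, while Hdac1 was at 7 members (all but Ihh and Hhip). Under the same setting the islands within 100 kb fell to 36 for Hdac1 and 14 for Hdac2, and the shared Hdac1 islands to 10. The other pathway genes with Hdac2 fell to 28 of 84. Dropping islands can only lower such counts, and over all genes 52.6% then had Hdac1 at an end and 15.8% had Hdac2. A distance of 200 kb raised the Hdac1 islands to 103. For these island counts, values over all genes under the changed settings are not given here. Counting listed starts only gave 52 other pathway genes with Hdac1 and 27 with Hdac2, out of 56 with a listed start. A 5 kb window brought in Shh, for 7 members with Hdac2, and the share over all genes was then 38.4%. No paired analysis was possible because each antibody had 1 library and the results come from no test. Unknown depth limits the reading of any missing island.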

Other observations

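Shh is known to be controlled in the limb by a distant enhancer inside an intron of Lmbr1, so Lmbr1 and its neighbour Rnf32 were looked at as well. Inside Lmbr1, 2 Hdac2 islands lay 882.5 and 887.1 kb from Shh, of 3.6 kb (value 9.74e-06, rank 80.7%) and 2.4 kb (value 7.31e-06, rank 79.5%), and neither overlapped Hdac1. An end of Lmbr1 carried islands of both antibodies, of 1.2 kb for Hdac1 (rank 23.0%) and 1.8 kb for Hdac2 (rank 46.9%). Rnf32 held 1 Hdac1 island of 1.6 kb (rank 56.8%) and no Hdac2 island. Whether any of these lies on the enhancer was not tested.

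Within 100 kb of the members, 8 Hdac1 and 2 Hdac2 islands lay outside all protein-coding genes and over 1 kb from any end of these. Before Gli3 lay a 1.6 kb Hdac1 island at 51.3 kb and a 2.4 kb Hdac2 island at 25.5 kb, which did not overlap each other. The nearest other protein-coding gene was Inhba, 566.1 kb from the Hdac2 island. The Hdac1 island 53.5 kb before Ptch1 (1.2 kb, rank 82.1%) was likewise without Hdac2. The shared region beyond Hhip, with ranks of 32.3% and 20%, was the only place of this kind outside the members where both antibodies overlapped.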
